A study of Homo sapiens with 8 samples.

Results

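The 36 autophagy and lysosome genes described here encode the initiation, membrane, conjugation and cargo-binding proteins of autophagy, 3 transcription factors that control lysosomal genes and 4 proteins of the lysosome itself. They were taken as a list of gene symbols, by their known roles and with no threshold on a measured value. The list was chosen with earlier results of these data known, so it is not independent of them. All 36 symbols were rows of the count file, which holds 26364 genes, and all 36 were among the 14201 genes that passed edgeR's filter on low counts. By role, 5 members belong to the ULK complex, 4 to the class III PI3-kinase complex, 4 to membrane supply and PI3P binding, 7 to the processing and conjugation of ATG8 proteins, 5 to the ATG8 family, 4 to the cargo receptors, 3 to the MiT/TFE factors and 4 to the lysosomal membrane proteins and cathepsins.

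In autophagy, a cup-shaped membrane grows around cytoplasmic cargo, closes to an autophagosome and fuses with the lysosome, where hydrolases digest the content. The ULK kinase complex starts the process, the class III PI3-kinase marks the membrane with the lipid PI3P, and ubiquitin-like ATG8 proteins (the LC3 and GABARAP families) are attached to that membrane, where cargo receptors such as p62, the product of SQSTM1, bind them. TFEB, TFE3 and MITF bind E-box sequences near genes of lysosomal and autophagy proteins. Glioblastoma cells are known to turn on autophagy upon temozolomide (TMZ), a methylating anticancer drug. An mRNA level is not a measure of autophagic flux, which was not measured in these libraries.

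Survivin, the product of BIRC5, inhibits apoptosis and serves in the chromosome passenger complex, and its nuclear export sequence (NES) moves it out of the nucleus. The study asked whether the place of Survivin in the cell changes the response to TMZ, with RNA of 2 stable clones of the glioblastoma line LN229. Clone D6 (Surv-GFP) carries a pcDNA3.1 plasmid for Survivin-eGFP whose NES works and is mostly cytoplasmic, and clone L2 (SurvNESmut-GFP) carries the NES-mutated form with the substitutions L96A and L98A, which is trapped in the nucleus. Both were grown under G418, without drug (untreated) or with TMZ at 50 µM over 48 h, with 2 libraries in each of the 4 groups, called a and b. Each form of Survivin is represented by 1 clone, so the form of Survivin and any other difference between D6 and L2 cannot be told apart. The TMZ stock was made in DMSO, and the sources used here do not say whether untreated cells received DMSO. A legend of the study speaks of biological replicates in technical duplicates, but the labels do not say which of these a and b are. The p-values thus measure the spread between the letters, which may be technical. The common coefficient of variation within groups, beyond counting error, was 4.09%. The study, also with edgeR, reported few significant hits for TMZ within clones and for the comparison between them, and loosened its p threshold.

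Between 15826923 and 18861603 reads per library fell on genes, and TMM factors lay between 0.978 and 1.02. Levels are given as CPM, the reads of a gene scaled to a common library size, on TMM-scaled library sizes. BIRC5 was at 1113 to 1152 CPM in untreated Surv-GFP and at 407 to 414 CPM in untreated SurvNESmut-GFP cells (log2 fold change -1.46 ± 0.05, SE, adjusted p = 1.33e-13). A count by symbol does not tell the cell's own BIRC5 from the plasmid's. CDKN1A, the p53 target that encodes the cell cycle inhibitor p21, rose upon TMZ in both clones, by 3.52 ± 0.07 on the log2 scale in Surv-GFP and by 1.96 ± 0.07 in SurvNESmut-GFP. Of 7 glial and glioma markers, 6 had over 50 reads in every library and GFAP, the astrocyte filament gene, had at most 17. The summed level of these 7 was 5921 to 5984 CPM and 4611 to 4799 CPM in untreated Surv-GFP and SurvNESmut-GFP cells and 3811 to 3894 and 4052 to 4168 CPM with TMZ, and S100B was 19.1-fold lower in untreated SurvNESmut-GFP than in untreated Surv-GFP. Of 10 markers of other lineages, 7 had at most 20 reads in every library, with AIF1 and MYOD1 of these at 0, the neuronal SYN1 had 36 to 68, and CD68 and KRT18 had over 50 in every library. The summed level of those 10 was 145 to 146 CPM and 149 to 155 CPM in the untreated clones and 285 to 292 and 216 to 240 CPM with TMZ, most of it the keratin gene KRT18 (129 to 136 CPM untreated, 190.0 to 270.5 with TMZ). The part of these markers in the results was not tested. A library without a read of a gene allows up to 3 reads, that is 0.160 to 0.189 CPM, by counting error alone.

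Promoters are shown for 2 sets of members, those with an E-box and those that rose by over 1 on the log2 scale upon TMZ in Surv-GFP cells. RefSeq promoters, from 250 bases before to 50 bases after the start, were at hand for 31 of the 36 members and were searched on both strands for the E-box CACGTG, for TCACGTGA, the E-box core of the sequence that TFEB binds, and for TGATGNAA, a sequence bound by stress-induced ATF4 complexes. For each gene 1 promoter was searched, and any other start of the gene was not. Every TCACGTGA also counts as a CACGTG. An E-box stood in 4 of 31 member promoters (12.9%), against 7.44% of all 27326 promoters, and TCACGTGA in 2 of 31 (6.45%), against 1.04%. TGATGNAA stood in 0 of 31, against 3.67%. LAMP1 holds several E-boxes and ATG3 a pair. Windows of 30 bases, 1 or 2 a gene and with TCACGTGA where there is one, are given 5′ to 3′ on the gene's strand (GRCh38.p14), with the match in capitals.

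LAMP1, chr13:113297199-113297228, plus strand: gacccgcgggaTCACGTGAcgcccgggcgc

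LAMP1, chr13:113297226-113297255, plus strand: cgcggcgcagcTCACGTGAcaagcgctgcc

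ATG3, chr3:112561940-112561969, minus strand: agagtctagtgTCACGTGAggccccggtgg

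CTSD, chr11:1763957-1763986, minus strand: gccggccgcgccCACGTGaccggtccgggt

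ATG14, chr14:55411834-55411863, minus strand: aaaacaaaatccCACGTGactggctctcct

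For the second set, SQSTM1, ATG101, MAP1LC3B and WIPI1, the promoter searched holds none of the 3 sequences. Promoters at other starts of these genes were not searched. The 250 bases before each start (GRCh38.p14) are given 5′ to 3′ on the gene's strand.

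SQSTM1, chr5:179806143-179806392, plus strand: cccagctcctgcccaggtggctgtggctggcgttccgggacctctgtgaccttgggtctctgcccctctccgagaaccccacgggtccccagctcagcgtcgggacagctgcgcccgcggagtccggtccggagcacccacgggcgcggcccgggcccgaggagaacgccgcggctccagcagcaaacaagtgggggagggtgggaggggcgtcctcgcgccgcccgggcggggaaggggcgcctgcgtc

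ATG101, chr12:52069728-52069977, plus strand: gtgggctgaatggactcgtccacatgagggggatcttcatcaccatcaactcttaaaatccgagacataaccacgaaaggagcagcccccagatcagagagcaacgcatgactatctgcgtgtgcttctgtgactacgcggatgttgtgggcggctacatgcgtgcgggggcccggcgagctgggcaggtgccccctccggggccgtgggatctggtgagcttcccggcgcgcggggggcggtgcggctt

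MAP1LC3B, chr16:87392086-87392335, plus strand: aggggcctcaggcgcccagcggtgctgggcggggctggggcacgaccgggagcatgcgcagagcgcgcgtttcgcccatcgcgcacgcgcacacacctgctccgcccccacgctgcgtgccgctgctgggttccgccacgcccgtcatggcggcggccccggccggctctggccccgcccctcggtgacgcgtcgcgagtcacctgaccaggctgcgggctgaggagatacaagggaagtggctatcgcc

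WIPI1, chr17:68457497-68457746, minus strand: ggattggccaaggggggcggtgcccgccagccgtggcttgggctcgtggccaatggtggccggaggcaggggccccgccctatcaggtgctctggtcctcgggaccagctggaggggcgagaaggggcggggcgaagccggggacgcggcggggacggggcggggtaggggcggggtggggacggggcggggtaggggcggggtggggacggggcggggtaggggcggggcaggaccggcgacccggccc

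A match or its absence describes these letters only. The members with an E-box, ATG14, ATG3, LAMP1 and CTSD, had log2 fold changes upon TMZ between -0.18 and 0.10 in both clones.

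Upon TMZ, Surv-GFP cells raised the mRNAs of a few autophagy genes strongly, and SurvNESmut-GFP cells did not. The receptor gene SQSTM1 rose 3.17-fold, the ULK complex gene ATG101 2.52-fold and the PI3P-binding gene WIPI1 2.12-fold in Surv-GFP cells, and the ATG8 gene MAP1LC3B rose by 1.14 on the log2 scale (all adjusted p below that of any other member). In SurvNESmut-GFP cells these 4 genes were at 0.825 to 1.15 times their untreated level, and the response differed between the clones for each of them. Most other members moved little in either clone. The genes of the lysosome proper among the members, LAMP1, LAMP2, CTSD and CTSB, stayed within log2 fold changes of -0.21 to 0.10.

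In counts, 16 of 36 members were higher (44.4%) and 6 lower (16.7%) in Surv-GFP cells upon TMZ by edgeR's quasi-likelihood F test at a Benjamini-Hochberg adjusted p under 0.05 over all tested genes. Among all tested genes 30.1% were higher and 28.9% lower. With an absolute log2 fold change of at least 0.5 as a further condition, 5 members were higher and 0 lower, beside 13.7% and 14.3% of all genes. The 17 other calls were smaller than that, and the 14 members that did not pass lay between -0.24 and 0.16. The median log2 fold change of the members was 0.11, with a range of -0.37 to 1.67, and the median of all tested genes was 0. The count of 16 was 13 with DESeq2. A filter of 1 CPM in 2 libraries gave 13 members higher and 10 lower, where 3819 of 13504 genes were higher and 4463 lower. The count of 6 was 3 without Surv-GFP untreated replicate b or Surv-GFP TMZ replicate a and 10 with a filter of 1 CPM in 2 libraries. In bulk RNA, fewer cells with a gene on and less RNA of it per cell cannot be told apart.

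In SurvNESmut-GFP cells, 3 members were higher (8.33%) and 12 lower (33.3%), where 18.6% of all genes were higher and 19.1% lower. The 2 libraries of this clone with TMZ differed more than the pairs of the other groups. Their chi-square per degree of freedom over the tested genes was 5.54, against 2.16 to 2.58. By size, 0 were higher and 1, GABARAPL1, was lower, against 6.86% and 5.79% of all genes. The count of 3 was 5 without SurvNESmut-GFP TMZ replicate a. The 21 members that did not pass lay between -0.15 and 0.20. The median of the members was 0.00 and their range -0.95 to 0.37. No member changed by over 1 on the log2 scale in this clone, whereas 4 did in Surv-GFP. All tested genes were not counted at this cut-off. Their median absolute log2 fold change was also smaller in this clone, at 0.197 against 0.318 in Surv-GFP.

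The difference between the responses, the log2 fold change in SurvNESmut-GFP minus that in Surv-GFP, passed the test for 19 members. It was below 0 for 17 (47.2%) and above 0 for 2 (5.56%), while 20.2% and 16.6% of all genes were called in these directions. When libraries were scaled by their size alone, the split was 14 below and 6 above, and with a filter of 1 CPM in 2 libraries 15 and 6. The 2 above 0 became 1 without replicate a of either Surv-GFP group or SurvNESmut-GFP untreated replicate b, and 4 without SurvNESmut-GFP TMZ replicate a. By size, 6 members were lower, namely SQSTM1, GABARAPL1, MAP1LC3B, ATG101, WIPI1 and TFE3, and 0 were higher, against 9.56% and 8.37% of all genes. The median difference was -0.19 for the members and -0.00103 for all genes. The TMZ responses of the 2 clones share no library, and their difference rests on all 8.

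**Figure D1:**
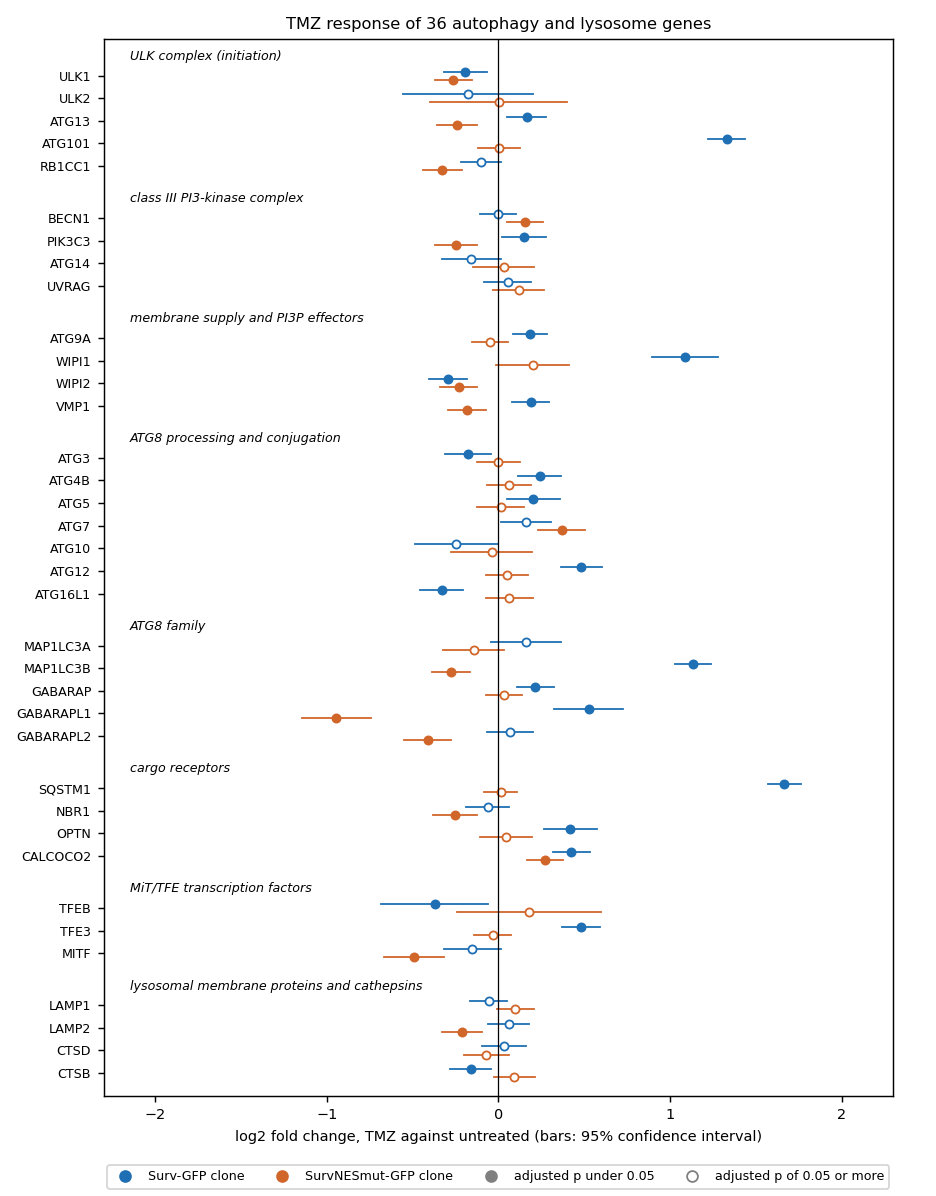
Log2 fold change upon TMZ (x axis) of each of the 36 members (y axis, by role) in Surv-GFP cells (blue) and SurvNESmut-GFP cells (orange). Points are estimates from 2 libraries a group, bars are 95% confidence intervals and filled points passed an adjusted p of 0.05. ATG101, WIPI1, MAP1LC3B and SQSTM1 stand above 1 in blue only, and GABARAPL1 stands at 0.53 in blue and -0.95 in orange.

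By call, CALCOCO2 rose in both clones and ULK1 and WIPI2 fell in both. The 5 members ATG13, PIK3C3, VMP1, MAP1LC3B and GABARAPL1 rose in Surv-GFP and fell in SurvNESmut-GFP. Another 10 rose in Surv-GFP alone, 4 fell there alone, 2 rose and 5 fell in SurvNESmut-GFP alone, and 7 passed in neither, namely ULK2, ATG14, UVRAG, ATG10, MAP1LC3A, LAMP1 and CTSD. Passing in 1 clone alone is not a difference between the clones, and the test of the difference is given for each member below. The sign of the estimate was the same in both clones for 18 members and opposite for 18. Neither these signs nor the joint calls were counted over all tested genes, so the numbers are not a trait of the members. In Surv-GFP the median absolute log2 fold change of the members was 0.187, below the 0.318 of all tested genes, and in SurvNESmut-GFP these medians were 0.132 and 0.197.

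**Figure D2:**
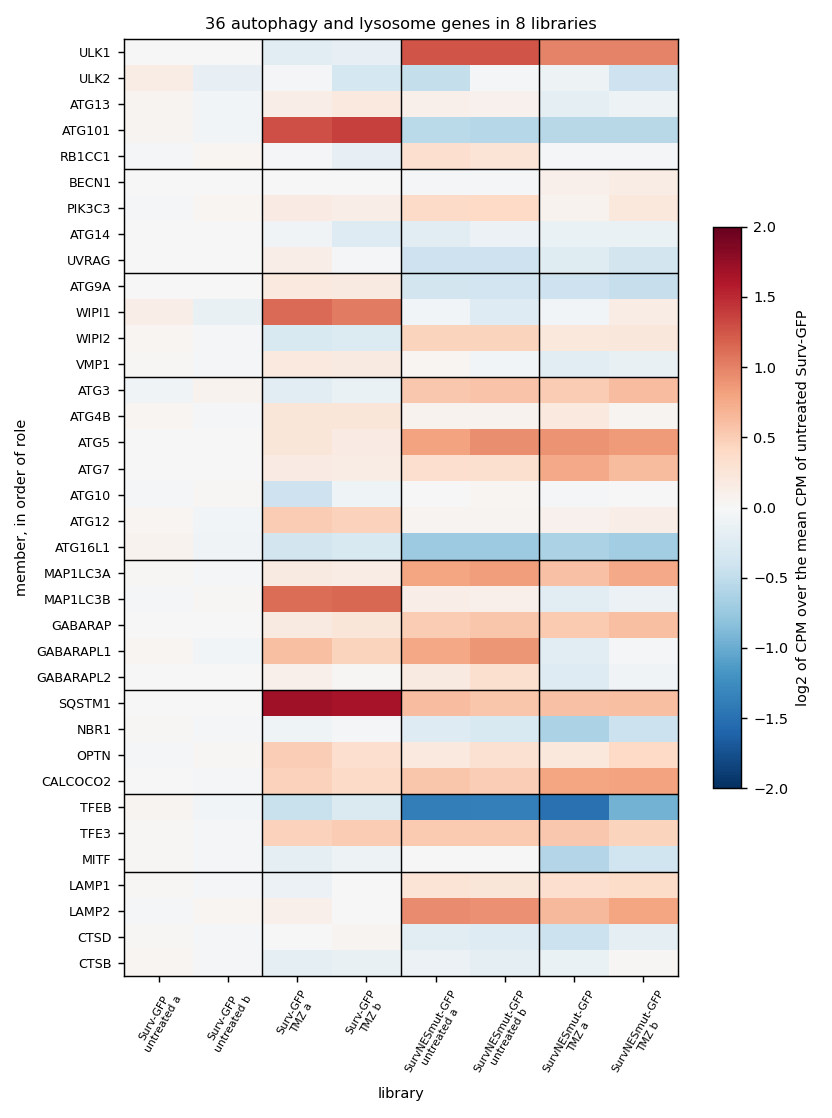
Log2 of the CPM of each member (rows, in order of role) in each of the 8 libraries (columns) over its mean in untreated Surv-GFP libraries, on a colour scale from -2 (blue) to 2 (red). The darkest red cells of SQSTM1, ATG101, MAP1LC3B and WIPI1 are those of Surv-GFP with TMZ, and ULK1, LAMP2 and TFEB differ between the clones in untreated cells.

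The ULK complex consists of the kinase ULK1 or ULK2 with ATG13, ATG101 and the scaffold RB1CC1 (FIP200). ATG101, which stabilises ATG13, was at 116 and 108 CPM in untreated Surv-GFP (a, b), at 273 and 289 with TMZ, at 77.1 and 74.8 in untreated SurvNESmut-GFP and at 76.0 and 76.2 with TMZ. Both Surv-GFP libraries with TMZ lay far above all others, and the SurvNESmut-GFP libraries with and without TMZ overlapped. On the log2 scale TMZ moved it by 1.33 ± 0.05 (SE, adjusted p = 2.09e-12) in Surv-GFP, against 0.0033 ± 0.06 (adjusted p = 0.972) in SurvNESmut-GFP, and the difference was -1.33 ± 0.08 (adjusted p = 2.42e-09). ATG13 rose by 0.17 ± 0.05 (adjusted p = 0.0139) in Surv-GFP and fell by 0.24 ± 0.05 (adjusted p = 0.00228) in SurvNESmut-GFP, a difference of -0.41 ± 0.08 (adjusted p = 0.000552). Its rise did not pass with DESeq2, with a filter of 1 CPM in 2 libraries or without replicate b of either Surv-GFP group, over which it was at least 0.097 (adjusted p up to 0.251).

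ULK1, the starting kinase, was at 39.6 and 40.0 CPM in untreated Surv-GFP cells, at 34.1 and 35.5 with TMZ, at 94.9 and 95.2 in untreated SurvNESmut-GFP and at 79.4 and 78.9 with TMZ. It was lower with TMZ in all libraries of both clones, with log2 fold changes of -0.19 ± 0.06 (adjusted p = 0.0110) and -0.26 ± 0.05 (adjusted p = 0.000611), and these responses did not differ past the threshold (95% interval of the difference -0.24 to 0.10). Without untreated Surv-GFP replicate b or Surv-GFP TMZ replicate a the fall in Surv-GFP did not pass (adjusted p up to 0.0961). RB1CC1 fell by 0.33 ± 0.05 in SurvNESmut-GFP (adjusted p = 0.000160), and its estimate in Surv-GFP was -0.10 ± 0.05 (adjusted p = 0.123). The difference of -0.23 ± 0.08 (adjusted p = 0.0292) did not pass in 6 of 16 alternatives, namely with library size alone, the filter of 1 CPM, DESeq2, or without Surv-GFP untreated replicate a, Surv-GFP TMZ replicate a or SurvNESmut-GFP untreated replicate a (adjusted p up to 0.176). ULK2, at 83 to 142 reads a library among the most thinly counted members, passed in neither clone.

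The class III PI3-kinase complex, with the lipid kinase PIK3C3 (VPS34), its partner BECN1 and either ATG14 or UVRAG, had 1 member higher and 0 lower in Surv-GFP and 1 of each in SurvNESmut-GFP. Of all tested genes, 30.1% were higher and 28.9% lower in Surv-GFP, and 18.6% and 19.1% in SurvNESmut-GFP. PIK3C3 was at 55.2 and 58.2 CPM in untreated Surv-GFP and at 63.3 and 62.5 with TMZ, and at 73.6 and 75.0 in untreated SurvNESmut-GFP and at 59.7 and 65.5 with TMZ. The groups did not overlap in either clone, and the order with TMZ was opposite. The rise of 0.15 ± 0.06 in Surv-GFP (adjusted p = 0.0406) was lost in 11 of 17 alternatives, among them the removal of any library but the SurvNESmut-GFP ones with TMZ (adjusted p up to 0.240). The fall by 0.25 ± 0.06 in SurvNESmut-GFP (adjusted p = 0.00309) and the difference of -0.40 ± 0.08 (adjusted p = 0.00137) held in every alternative. BECN1 rose by 0.16 ± 0.05 (adjusted p = 0.0190) in SurvNESmut-GFP, a call lost in 5 of 17 alternatives, namely with DESeq2, with the 4 libraries of that clone alone and without either untreated replicate or TMZ replicate b of that clone (adjusted p up to 0.110). ATG14 and UVRAG passed in neither clone.

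Among the proteins that supply and shape the membrane, WIPI1, which binds PI3P on the growing membrane, moved most. Its levels were 32.1 and 26.6 CPM in untreated Surv-GFP, 64.3 and 60.6 with TMZ, 28.3 and 24.6 in untreated SurvNESmut-GFP and 28.2 and 32.7 with TMZ. The Surv-GFP libraries with TMZ were the only ones above 33 CPM. WIPI1 rose by 1.09 ± 0.09 on the log2 scale (adjusted p = 2.79e-08) in Surv-GFP, against 0.20 ± 0.10 (adjusted p = 0.132) in SurvNESmut-GFP, and the difference was -0.89 ± 0.14 (adjusted p = 8.60e-05). Exons of WIPI1 share 828 bases with ARSG on the other strand in GENCODE 29, and the sources used here do not give the strandedness of the counts. ARSG, which encodes a lysosomal sulfatase, was at a mean of 2.38 CPM in untreated and 7.17 CPM in TMZ-exposed Surv-GFP cells and at 2.77 and 5.97 CPM in SurvNESmut-GFP. Its part in the values of WIPI1 was not tested.

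WIPI2, which recruits the ATG16L1 conjugation complex, was lower upon TMZ in both clones, by log2 fold changes of -0.29 ± 0.05 in Surv-GFP (adjusted p = 0.000145) and -0.23 ± 0.05 in SurvNESmut-GFP (adjusted p = 0.00156). The 95% interval of the difference, -0.09 to 0.21, included 0. ATG9A, the transmembrane lipid scramblase that seeds the membrane, rose by 0.19 ± 0.05 in Surv-GFP (adjusted p = 0.00281). Its difference of -0.24 ± 0.07 (adjusted p = 0.0123) was lost with DESeq2 and without Surv-GFP TMZ replicate b (adjusted p up to 0.0745). VMP1, an endoplasmic reticulum protein needed for the growing membrane, was at 196 and 191 CPM in untreated Surv-GFP and at 221 and 220.3 with TMZ, and at 199 and 186 in untreated SurvNESmut-GFP and at 165 and 174 with TMZ. It rose by 0.19 ± 0.05 (adjusted p = 0.00422) in the first and fell by 0.18 ± 0.05 (adjusted p = 0.0103) in the second, with a difference of -0.37 ± 0.07 (adjusted p = 0.000735). The rise was lost without Surv-GFP TMZ replicate b (adjusted p = 0.0542) and the fall without replicate a of either SurvNESmut-GFP group (adjusted p up to 0.135).

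The enzymes that process ATG8 proteins moved in mixed directions. ATG12, a ubiquitin-like protein that ATG7 and ATG10 join to ATG5, was at 53.7 and 50.3 CPM in untreated Surv-GFP cells and at 73.9 and 71.4 with TMZ, and at 54.1 and 54.2 in untreated SurvNESmut-GFP and 55.0 and 57.2 with TMZ. Only the Surv-GFP libraries with TMZ exceeded 58 CPM. It rose by 0.48 ± 0.06 on the log2 scale (adjusted p = 1.72e-06) in Surv-GFP, against 0.05 ± 0.06 (adjusted p = 0.533) in SurvNESmut-GFP, a difference of -0.43 ± 0.08 (adjusted p = 0.000576). ATG16L1, which sets the place of conjugation, fell in Surv-GFP from 78.6 and 71.3 to 58.3 and 60.9 CPM, by 0.33 ± 0.06 on the log2 scale (adjusted p = 0.000162). In SurvNESmut-GFP it was at 45.1 and 45.4 CPM without and 48.2 and 46.4 CPM with TMZ, and the difference of 0.39 ± 0.09 (adjusted p = 0.00231) was the larger of the 2 above 0.

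ATG7, the E1-like enzyme of both conjugation systems, was at 31.4 and 31.0 CPM in untreated and 35.1 and 34.7 CPM in TMZ-exposed Surv-GFP cells, and at 39.5 and 38.8 and then 52.8 and 48.2 CPM in SurvNESmut-GFP. The rise in SurvNESmut-GFP was 0.37 ± 0.07 on the log2 scale (adjusted p = 0.000299), the largest of the 3 rises in that clone, and the difference from Surv-GFP did not pass (95% interval 0.0067 to 0.41, adjusted p = 0.0991). The protease gene ATG4B rose by 0.24 ± 0.06 in Surv-GFP (adjusted p = 0.00236) and ATG5 by 0.20 ± 0.07 (adjusted p = 0.0252), while the E2-like gene ATG3 fell by 0.18 ± 0.06 (adjusted p = 0.0229). The ATG5 call was lost in 7 of 17 alternatives, among them leaving out any Surv-GFP library (adjusted p up to 0.163), and that of ATG3 without Surv-GFP untreated replicate b or Surv-GFP TMZ replicate a (adjusted p up to 0.254). None of these 3 differed in response between the clones past the threshold, and ATG10 passed in no comparison.

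Of the 5 members of the ATG8 family, 3 were higher and 0 lower in Surv-GFP (30.1% and 28.9% of all genes) and 0 higher and 3 lower in SurvNESmut-GFP (18.6% and 19.1%). MAP1LC3B encodes LC3B, the usual marker of autophagosomes. It was at 91.0 and 93.2 CPM in untreated Surv-GFP, 199.9 and 205 with TMZ, 100.5 and 98.7 in untreated SurvNESmut-GFP and 79.2 and 85.1 with TMZ. The untreated libraries of both clones lay close together, those of Surv-GFP with TMZ were the highest and those of SurvNESmut-GFP with TMZ were the lowest. The log2 fold changes were 1.14 ± 0.05 (adjusted p = 1.10e-11) and -0.28 ± 0.05 (adjusted p = 0.000536), and the difference was -1.41 ± 0.07 (adjusted p = 6.80e-10). The near-copy MAP1LC3B2 had 3 to 11 reads in each library.

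GABARAPL1, an ATG8 protein of the GABARAP branch, was at 16.9 and 15.8 CPM in untreated Surv-GFP, at 24.7 and 22.3 with TMZ, at 27.8 and 30.1 in untreated SurvNESmut-GFP and at 14.1 and 16.01 with TMZ. TMZ thus reversed the order of the clones. It rose by 0.53 ± 0.09 on the log2 scale in Surv-GFP (adjusted p = 0.000154) and fell by 0.95 ± 0.10 in SurvNESmut-GFP (adjusted p = 9.56e-07), the largest fall of any member, and the difference was -1.47 ± 0.13 (adjusted p = 4.21e-07). GABARAPL2 was at 80.5 and 81.1 CPM without and 86.9 and 82.4 CPM with TMZ in Surv-GFP, and at 91.3 and 100.4 and then 67.6 and 76.6 CPM in SurvNESmut-GFP. Its fall by 0.41 ± 0.06 in SurvNESmut-GFP (adjusted p = 0.000105) differed from the 0.07 ± 0.06 in Surv-GFP by -0.48 ± 0.09 (adjusted p = 0.000636). GABARAP rose by 0.22 ± 0.05 in Surv-GFP (adjusted p = 0.00153), a call lost without Surv-GFP TMZ replicate b (adjusted p = 0.0593). Its difference of -0.19 ± 0.07 (adjusted p = 0.0492) was lost in 14 of 16 alternatives, the removal of any library but SurvNESmut-GFP TMZ replicate b among them (adjusted p up to 0.285). MAP1LC3A passed in neither clone and not in the difference.

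**Figure D3:**
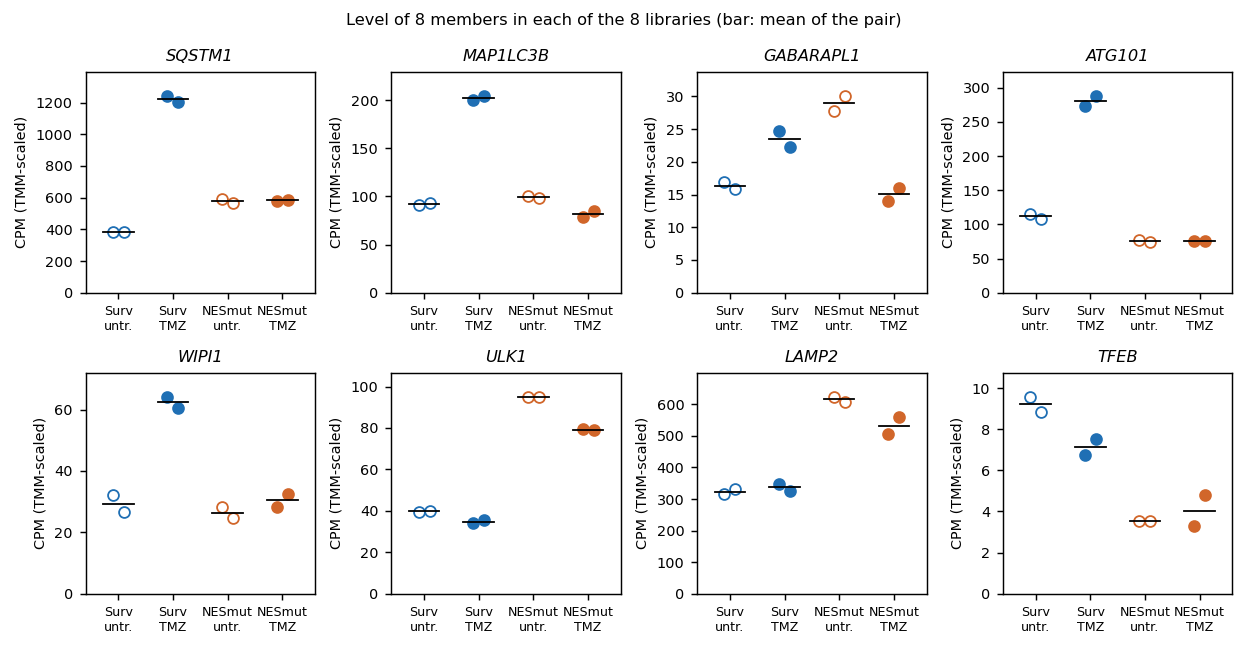
CPM (y axis, TMM-scaled, from 0) of 8 members in the 2 libraries of each of the 4 groups (x axis). Blue is Surv-GFP, orange SurvNESmut-GFP, open points are untreated, filled points are with TMZ and black bars are means of the pair. SQSTM1, MAP1LC3B, ATG101 and WIPI1 are high only in Surv-GFP with TMZ, GABARAPL1 moves in opposite directions and ULK1, LAMP2 and TFEB differ between the clones without TMZ.

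Of the cargo receptors, which tie ubiquitinated or other cargo to ATG8 proteins, 3 of 4 rose in Surv-GFP, where 30.1% of all genes were higher. SQSTM1 (p62) was at 385 and 386 CPM in untreated Surv-GFP cells, at 1244 and 1205 with TMZ, at 593 and 565 in untreated SurvNESmut-GFP and at 581 and 587 with TMZ. The SurvNESmut-GFP libraries with and without TMZ overlapped, above untreated and below TMZ-exposed Surv-GFP cells. The rise in Surv-GFP was 1.67 ± 0.05 on the log2 scale (adjusted p = 3.40e-14), larger than that of 97.6% of all tested genes, against 0.01 ± 0.04 (adjusted p = 0.852) in SurvNESmut-GFP. The difference of -1.65 ± 0.06 (adjusted p = 2.47e-11) was the largest of the 36. SQSTM1 shares exon bases on the other strand with MRNIP (1582 bases) and MGAT4B (105 bases) in GENCODE 29. MGAT4B was at mean levels of 237 and 229 CPM in Surv-GFP without and with TMZ. No row of the count file is named MRNIP, so its level was not seen. The part of either gene in the values of SQSTM1 was not tested.

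CALCOCO2 (NDP52), a receptor for bacteria and mitochondria, was the member that rose in both clones. It went from 81.9 and 80.1 to 112 and 106 CPM in Surv-GFP and from 119 and 114 to 140.2 and 142 CPM in SurvNESmut-GFP. These were log2 fold changes of 0.43 ± 0.05 (adjusted p = 2.31e-06) and 0.27 ± 0.05 (adjusted p = 0.000365), and the difference did not pass (95% interval -0.30 to -0.00011, adjusted p = 0.110). OPTN (optineurin) rose by 0.42 ± 0.07 in Surv-GFP (adjusted p = 9.69e-05), with 0.05 ± 0.07 in SurvNESmut-GFP. The difference of -0.37 ± 0.10 (adjusted p = 0.00860) was lost without Surv-GFP TMZ replicate a or SurvNESmut-GFP untreated replicate b (adjusted p up to 0.0564). NBR1, a receptor related to p62, fell by 0.25 ± 0.06 in SurvNESmut-GFP (adjusted p = 0.00368) and did not pass in Surv-GFP.

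The 3 MiT/TFE factors went different ways. TFE3 was at 86.0 and 83.5 CPM in untreated Surv-GFP, at 117 and 119.9 with TMZ, at 122 and 122 in untreated SurvNESmut-GFP and at 123 and 115 with TMZ. Surv-GFP cells with TMZ thus reached the level that SurvNESmut-GFP cells had in both states. TFE3 rose by 0.48 ± 0.05 on the log2 scale (adjusted p = 5.54e-07) in Surv-GFP, against -0.03 ± 0.05 (adjusted p = 0.632) in SurvNESmut-GFP, with a difference of -0.51 ± 0.07 (adjusted p = 3.63e-05). MITF fell by 0.49 ± 0.08 in SurvNESmut-GFP (adjusted p = 0.000167), from 30.9 and 31.1 to 20.6 and 23.5 CPM, with -0.15 ± 0.08 (adjusted p = 0.106) in Surv-GFP. Its difference of -0.34 ± 0.11 (adjusted p = 0.0262) was lost in 8 of 16 alternatives, which included leaving out any library other than Surv-GFP TMZ replicate a and SurvNESmut-GFP TMZ replicate b (adjusted p up to 0.133).

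TFEB was thinly counted. It was at 9.59 and 8.83 CPM in untreated Surv-GFP, 6.74 and 7.52 with TMZ, 3.52 and 3.56 in untreated SurvNESmut-GFP and 3.27 and 4.79 with TMZ. The fall by 0.37 ± 0.15 in Surv-GFP (adjusted p = 0.0393) was lost in 6 of 17 alternatives, namely with DESeq2 and without Surv-GFP untreated replicate a or b, Surv-GFP TMZ replicate a or SurvNESmut-GFP untreated replicate a or b (adjusted p up to 0.209). The response in SurvNESmut-GFP did not pass, and neither did the difference (95% interval 0.03 to 1.08, adjusted p = 0.0938).

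The estimates of the lysosomal members were small. LAMP2, a membrane protein of the lysosome that also serves in chaperone-mediated autophagy, was at 316 and 331 CPM without and 348 and 326 CPM with TMZ in Surv-GFP, and at 625 and 608 and then 505 and 561 CPM in SurvNESmut-GFP. The Surv-GFP libraries overlapped and the SurvNESmut-GFP ones did not. Its fall by 0.21 ± 0.06 in SurvNESmut-GFP (adjusted p = 0.00646) was lost without replicate a of either SurvNESmut-GFP group (adjusted p up to 0.0600). The difference of -0.27 ± 0.08 (adjusted p = 0.0127) was lost without replicate a of either Surv-GFP group or of untreated SurvNESmut-GFP (adjusted p up to 0.0772). CTSB, the cysteine protease cathepsin B, fell by 0.16 ± 0.06 in Surv-GFP (adjusted p = 0.0213), a call lost without replicate a of either Surv-GFP group (adjusted p up to 0.186). Its estimate in SurvNESmut-GFP was 0.09 ± 0.06, and the difference of 0.25 ± 0.08 (adjusted p = 0.0199) was lost without replicate a of either Surv-GFP group or SurvNESmut-GFP untreated replicate b (adjusted p up to 0.106). LAMP1, the other major membrane protein, and CTSD, the aspartic protease cathepsin D, passed in neither clone. With library size alone LAMP1 passed as higher in SurvNESmut-GFP (adjusted p = 0.0428). CTSD was at 723 and 857 CPM in SurvNESmut-GFP with TMZ. Its estimate in that clone was -0.07, and -0.19 to 0.05 over the alternatives.

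In untreated cells the clones differed in many members. SurvNESmut-GFP was higher than Surv-GFP in 17 (47.2%) and lower in 8 (22.2%), where 34.7% of all genes were higher and 29.4% lower. The median was 0.10 for the members and 0.03 for all genes. ULK1 was 2.39-fold higher (log2 1.26 ± 0.05, adjusted p = 5.57e-12), LAMP2 1.91-fold (0.93 ± 0.06, adjusted p = 3.82e-10) and ATG5 1.82-fold (0.87 ± 0.07, adjusted p = 1.25e-08). TFEB was 2.60-fold lower in SurvNESmut-GFP (log2 -1.38 ± 0.17, adjusted p = 1.95e-06), ATG16L1 1.66-fold (-0.73 ± 0.06, adjusted p = 2.73e-08) and ATG101 1.47-fold (-0.56 ± 0.05, adjusted p = 1.63e-07). In the ATG8 family 4 of 5 members were higher and 0 lower (34.7% and 29.4% of all genes), led by GABARAPL1 (1.77-fold) and MAP1LC3A (1.76-fold), and MAP1LC3B did not pass (log2 0.11, 95% interval 0.0026 to 0.22). Of the receptors, SQSTM1 was higher by 0.58 on the log2 scale (adjusted p = 8.95e-09), CALCOCO2 was 1.44-fold and OPTN 1.19-fold higher and NBR1 1.21-fold lower. Calls for GABARAPL2 and OPTN were lost without SurvNESmut-GFP untreated replicate b (adjusted p of 0.0630 and 0.0776), and that of CTSB without it or Surv-GFP untreated replicate a (adjusted p up to 0.220).

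With TMZ the clones differed in 27 members, and the median of the members was -0.09, with -0.000527 for all genes. SurvNESmut-GFP was higher in 11 (30.6%) and lower in 16 (44.4%), against 34.5% and 34.7% of all genes. ATG101 was 3.69-fold lower (log2 -1.88 ± 0.05, adjusted p = 4.66e-14), MAP1LC3B 2.46-fold (-1.30 ± 0.05, adjusted p = 1.96e-12), SQSTM1 2.10-fold (-1.07 ± 0.05, adjusted p = 4.81e-12) and WIPI1 2.06-fold (-1.04 ± 0.09, adjusted p = 3.40e-08). ULK1 (2.27-fold), ATG3 (1.67-fold), ATG5 (1.60-fold) and LAMP2 (1.58-fold) were higher, as they were without TMZ. GABARAPL1, 1.77-fold higher in untreated SurvNESmut-GFP, was 1.56-fold lower with TMZ, and SQSTM1 went from a log2 value of 0.58 to one of -1.07. The comparisons with and without TMZ rest on different libraries, but each shares libraries with the TMZ responses above. The call of BECN1 (log2 0.13) was lost in 7 of 17 alternatives, among them without any 1 of the 4 libraries compared (adjusted p up to 0.310).

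**Figure D4:**
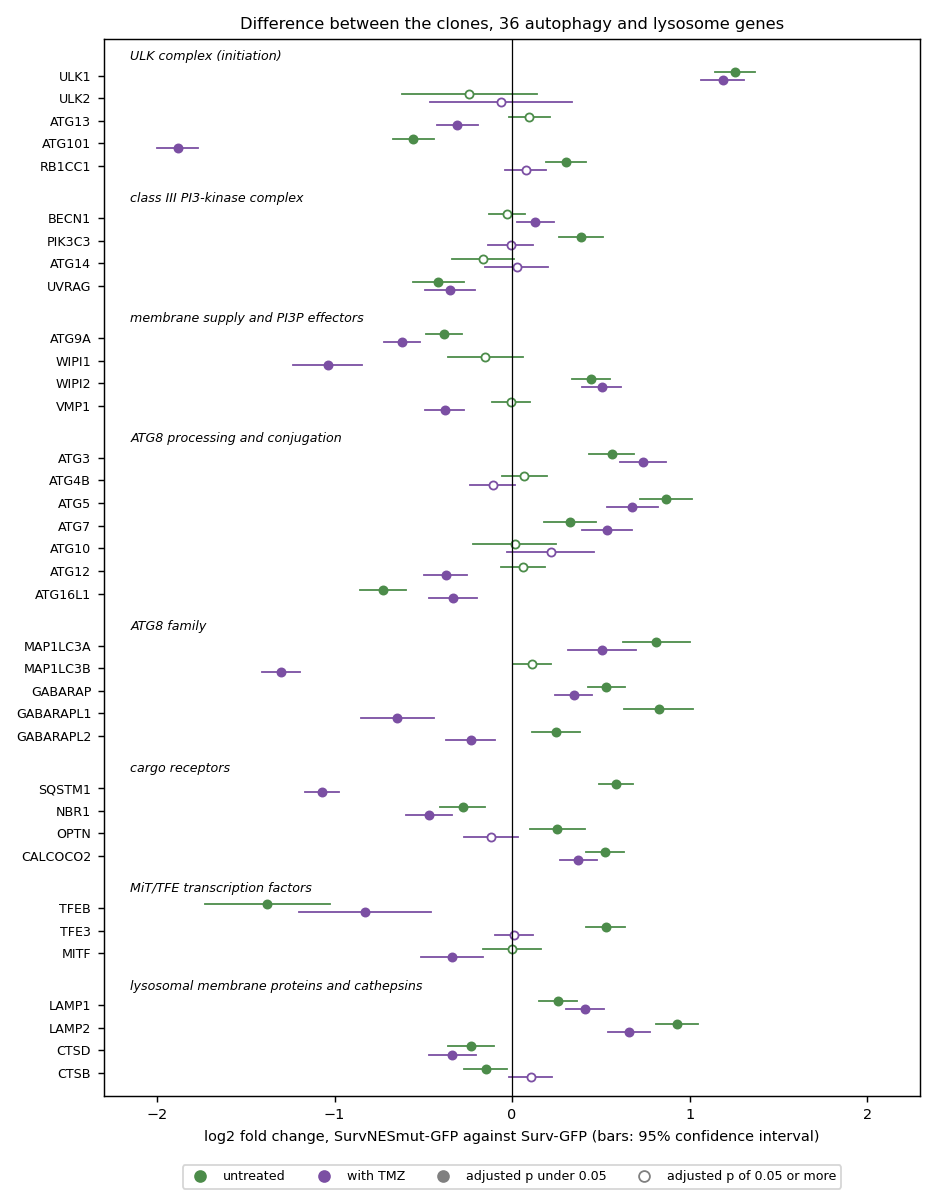
Log2 fold change of SurvNESmut-GFP over Surv-GFP (x axis) for each of the 36 members (y axis, by role) in untreated cells (green) and with TMZ (purple). Points are estimates from 2 libraries a group, bars are 95% confidence intervals and filled points passed an adjusted p of 0.05. ULK1 stands near 1.2 in both states, and SQSTM1, MAP1LC3B, GABARAPL1, ATG101 and WIPI1 stand lower with TMZ than without.

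Other genes of the pathway were followed as 5 lists, none of which holds a member. Of 44 tested genes for lysosomal hydrolases and their cofactors, 7 were higher and 17 lower in Surv-GFP upon TMZ, with a median log2 fold change of -0.07, and 13 were higher and 9 lower in SurvNESmut-GFP, with a median of 0.08. These were 15.9% and 38.6% of the list in Surv-GFP, beside 30.1% and 28.9% of all genes, and 29.5% and 20.5% in SurvNESmut-GFP, beside 18.6% and 19.1%. The count of 7 was 3 to 4 without replicate b of either Surv-GFP group and 11 without either SurvNESmut-GFP TMZ replicate. The count of 13 was 7 to 8 without either untreated SurvNESmut-GFP replicate, and that of 9 was 3 to 5 without either of these or SurvNESmut-GFP TMZ replicate a. In Surv-GFP, AGA, an amidase that splits glycoproteins, rose by 0.73 and the sialidase NEU1 by 0.58, while GM2A, the activator of ganglioside breakdown, fell by 0.70 and the acid lipase LIPA by 0.63. In SurvNESmut-GFP, the nuclease DNASE2 (0.44) and the ceramidase ASAH1 (0.36) rose, and the phosphatase ACP2 fell by 0.73 and the sulfatase ARSB by 0.46. GLB1, the β-galactosidase behind the senescence stain, was at 95.4 and 88.1 CPM in untreated and 75.4 and 75.9 CPM in TMZ-exposed Surv-GFP cells, and at 95.9 and 94.2 and then 93.1 and 97.5 CPM in SurvNESmut-GFP. It fell by 0.28 ± 0.05 in Surv-GFP (adjusted p = 0.000310) and was at 0.0035 ± 0.05 in SurvNESmut-GFP (adjusted p = 0.968). The difference of 0.28 ± 0.08 (adjusted p = 0.00801) was lost without Surv-GFP untreated replicate a (0.22, adjusted p = 0.0662).

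Of 40 tested genes of the lysosomal membrane and the proton pump that acidifies the lysosome, 19 were higher and 7 lower in Surv-GFP (median 0.12), and 5 were higher and 9 lower in SurvNESmut-GFP (median -0.07). The shares were 47.5% and 17.5% in Surv-GFP, against 30.1% and 28.9% of all genes, and 12.5% and 22.5% in SurvNESmut-GFP, against 18.6% and 19.1%. The count of 5 was 3 without either untreated SurvNESmut-GFP replicate. The pump subunit ATP6V1E1 rose by 0.63 and OSTM1, the partner of a lysosomal chloride exchanger, by 0.71 in Surv-GFP, while the transmembrane gene LAPTM4B fell by 0.61 and the pump subunit ATP6V0E2 by 0.71. In SurvNESmut-GFP the cation channel TPCN1 (0.40) and the pump subunit ATP6V1F (0.24) rose, and LAPTM4A fell by 0.35 and the channel TPCN2 by 0.45. MCOLN1, the lysosomal calcium channel, passed in neither clone (log2 0.17 ± 0.09 and 0.04 ± 0.09, adjusted p of 0.117 and 0.758).

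Of 32 further genes of the autophagy machinery, 14 were higher and 5 lower in Surv-GFP (median 0.10), and 5 were higher and 4 lower in SurvNESmut-GFP (median 0.07). That is 43.8% and 15.6% in Surv-GFP, where all genes had 30.1% and 28.9%, and 15.6% and 12.5% in SurvNESmut-GFP, where all genes had 18.6% and 19.1%. The lower count in Surv-GFP was 3 without replicate a of either Surv-GFP group. In SurvNESmut-GFP the higher count was 10 with library size alone, 3 without untreated replicate b and 8 without TMZ replicate b of that clone, and the lower count was 2 without its untreated replicate a. WDR45, a relative of WIPI1 and WIPI2, rose by 0.78 and the fusion protein gene YKT6 by 0.54 in Surv-GFP, whereas the BECN1 partner AMBRA1 fell by 0.31 and ATG16L2 by 0.47. In SurvNESmut-GFP, VPS16 (0.27) and EPG5 (0.27), both of the machinery that tethers autophagosomes to lysosomes, rose, and the lipid scramblase gene TMEM41B fell by 0.46 and AMBRA1 by 0.36.

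Mitophagy, the removal of mitochondria, had 12 tested genes, of which 2 were higher and 6 lower in Surv-GFP, and 2 higher and 6 lower in SurvNESmut-GFP. In each clone this is 16.7% higher and 50.0% lower, and all genes had 30.1% and 28.9% in Surv-GFP and 18.6% and 19.1% in SurvNESmut-GFP. The medians were -0.14 and -0.16. Of the 2 higher in SurvNESmut-GFP, 1 was left with DESeq2, with the 4 libraries of that clone alone and without its TMZ replicate b. The receptor gene BCL2L13 rose in both clones, by 0.54 and 0.37, and so did the ubiquitin ligase gene MUL1, by 0.36 and 0.19. The MUL1 call in SurvNESmut-GFP was lost in 5 of 17 alternatives, namely with DESeq2, with the 4 libraries of that clone alone and without SurvNESmut-GFP untreated replicate a or TMZ replicate a or b (0.12 to 0.20, adjusted p up to 0.274). The receptor gene BNIP3L fell by 0.40 in Surv-GFP and by 0.73 in SurvNESmut-GFP. The related BNIP3 was at 44.1 and 46.5 CPM without and 36.4 and 33.5 CPM with TMZ in Surv-GFP and at 58.5 and 61.6 and then 39.7 and 36.6 CPM in SurvNESmut-GFP, with log2 fold changes of -0.37 ± 0.07 (adjusted p = 0.000210) and -0.65 ± 0.07 (adjusted p = 1.31e-06). NIPSNAP1, a mitochondrial tag for receptors, fell by 0.61 in Surv-GFP.

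The kinases mTORC1 and AMPK, which hold back and promote autophagy, and their control at the lysosome had 31 tested genes, with 12 higher and 4 lower in Surv-GFP (median 0.07), and 9 higher and 8 lower in SurvNESmut-GFP (median 0.05). As shares these are 38.7% and 12.9% in Surv-GFP, with 30.1% and 28.9% for all genes, and 29.03% and 25.8% in SurvNESmut-GFP, with 18.6% and 19.1%. In Surv-GFP the higher count was 7 without TMZ replicate b, and the lower count was 2 without either untreated replicate or TMZ replicate a. In SurvNESmut-GFP, untreated replicate b or TMZ replicate a left out gave 5 higher and 3 to 5 lower, DESeq2 gave 5 and 4, and library size alone gave 5 lower. The AMPK subunit gene PRKAB2 rose by 1.62 ± 0.05 in Surv-GFP (adjusted p = 3.14e-13) and by 0.71 ± 0.06 in SurvNESmut-GFP (adjusted p = 7.04e-08). FLCN, whose product acts on Rag GTPases so that mTORC1 can phosphorylate TFEB and TFE3, rose by 1.19 ± 0.08 in Surv-GFP (adjusted p = 1.40e-09), and DEPTOR, an inhibitor of mTOR, fell by 1.74 ± 0.20 (adjusted p = 1.19e-06). The AMPK activator STK11 fell by 0.22, a call lost without Surv-GFP untreated replicate b (-0.19) or Surv-GFP TMZ replicate a (-0.14). In SurvNESmut-GFP the AMPK subunit PRKAG2 rose by 0.81, and TBC1D7, a subunit of the TSC complex, fell by 0.62 and the Rag GTPase gene RRAGA by 0.30.

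**Figure D5:**
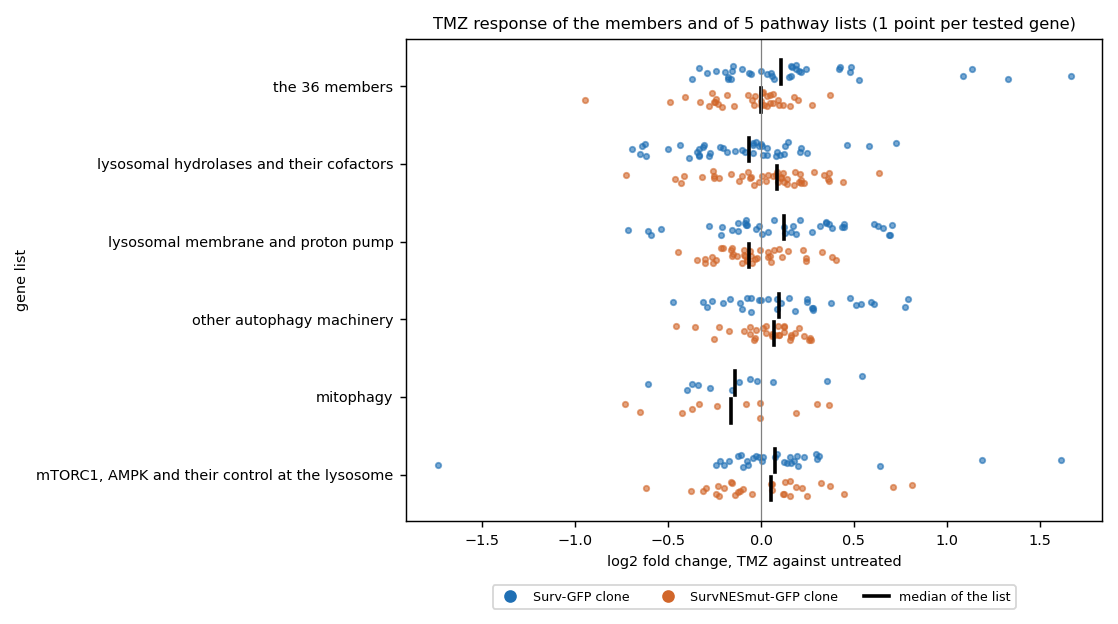
Log2 fold change upon TMZ (x axis) of each tested gene of the 36 members and of the 5 pathway lists (y axis) in Surv-GFP (blue) and SurvNESmut-GFP cells (orange), with the median of each list as a black bar. All medians lie between -0.16 and 0.12, and the members reach 1.67 in Surv-GFP and 0.37 in SurvNESmut-GFP.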

How the data were processed

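RNA of 8 libraries (2 clones, each untreated or with TMZ, 2 libraries a group) was sequenced, and the authors deposited 1 table of raw counts per gene symbol. The submitters' processing notes list STAR 2.5.0b, Cufflinks 2.2.1 and edgeR. Build, annotation, counter and strandedness were not given in the sources used here. Another 5 files hold comparisons of the authors (log2 fold change, average log2 CPM, F, p and FDR) and were not used. A pair of rows naming no gene (11.2 to 14.3% and 1.19 to 1.28% of all counted reads, these rows included) was left out.

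The counts were filtered with filterByExpr (14201 of 26364 genes kept), scaled by TMM and fitted over all 8 libraries with edgeR 4.0.16 in R 4.3.3 (legacy quasi-likelihood F tests, limma 3.58.1), with Benjamini-Hochberg adjustment over all tested genes and a threshold of 0.05. The 5 comparisons were TMZ in each clone, their difference, and the clones without and with TMZ. Errors are SEs, intervals are 95% confidence intervals, and n is 2 libraries a group. The scripts were tested on simulated data. Alternatives were DESeq2 1.42.0, other scalings, filters and quasi-likelihood settings, the 4 libraries compared alone, a replicate block, and each library left out.

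All 36 members are named. Of each pathway list, the 2 called genes of lowest p per direction and clone are named, with GLB1, MCOLN1 and BNIP3 added. Members and lists were chosen with earlier results of these data known. Promoters are from RefSeq (GRCh38.p14), and overlaps are by gene name from GENCODE 29. Further members share exon bases with other genes, and the part of these in the counts was not tested. Between 15826923 and 18861603 reads a library fell on genes.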

Additional observations from a re-analysis of the deposited data

Results flagged for a closer look

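The TMZ response of 19 members differed between the clones by the edgeR quasi-likelihood test of the difference itself. As the log2 fold change in SurvNESmut-GFP minus that in Surv-GFP, the values of the ULK and PI3-kinase complexes were -0.41 for ATG13, -1.33 for ATG101, -0.23 for RB1CC1 and -0.40 for PIK3C3. For membrane supply and conjugation they were -0.24 for ATG9A, -0.89 for WIPI1, -0.37 for VMP1, -0.43 for ATG12 and 0.39 for ATG16L1. In the ATG8 family they were -1.41 for MAP1LC3B, -0.19 for GABARAP, -1.47 for GABARAPL1 and -0.48 for GABARAPL2. For receptors, factors and lysosomal genes they were -1.65 for SQSTM1, -0.37 for OPTN, -0.51 for TFE3, -0.34 for MITF, -0.27 for LAMP2 and 0.25 for CTSB. Single libraries were not tested as outliers within their group, since each group holds 2.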

How the results depend on the processing

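Each group holds 2 libraries of 1 clone, and a group left with 1 library was assumed to vary like the others. Calls held under every alternative for 13 of 22 members in Surv-GFP upon TMZ, 12 of 15 in SurvNESmut-GFP, 12 of 19 in the difference, 22 of 25 between untreated clones and 26 of 27 with TMZ. The labels do not say whether the letters a and b pair libraries across groups. The correlation of a minus b between groups was -0.0562 to 0.0784, which cannot settle whether libraries of 1 letter were handled together. With the replicate block the counts stayed at 16 higher and 6 lower in Surv-GFP and 3 and 12 in SurvNESmut-GFP. Members lower in Surv-GFP numbered 10 with a filter of 1 CPM and 3 to 7 with a library left out, against 6. Members higher in SurvNESmut-GFP numbered 2 to 5 with a library left out, against 3. Members with a difference above 0 numbered 6 with library size alone, 6 with the 1 CPM filter and 1 to 4 with a library left out, against 2. In Surv-GFP, 13 members were higher with DESeq2 or with a filter of 1 CPM, against 16. No called member turned its sign under any alternative. Of the members not called, 4 turned in Surv-GFP, 12 in SurvNESmut-GFP, 2 in the difference, 3 between untreated clones and 5 with TMZ. Those with a value in the text, and 2 list genes, turned in SurvNESmut-GFP as follows. ATG101 was at -0.00240 with DESeq2 size factors, -0.00127 without a filter, -0.00238 with DESeq2 and -0.0204 to 0.0233 with a library left out. GLB1 was at -0.00213, -0.00107 and -0.00200 under the same 3 settings and at -0.0250 to 0.0386 with a library left out (-0.0112 among these). TFE3 was at 0.00185 with library size alone and -0.0803 to 0.0163 with a library left out. Leaving out a library also turned GABARAP (-0.00134 to 0.0693), SQSTM1 (-0.0239 to 0.0458), OPTN (-0.0449 to 0.140, -0.0122 among these) and MCOLN1 (-0.0689 to 0.151). The causes were not tested. Counts over all tested genes stayed within 1.5 times under every alternative.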
